A study of Mus musculus with 6 samples.

Results

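Haemostasis at the vessel wall was described in liver sinusoidal endothelial cells through 9 genes by which an endothelial cell takes part in clot formation and clot removal: Thbd, Procr, Tfpi, F3, F8, Vwf, Plat, Plau and Plaur. The genes were chosen by symbol from the deposited table of 51165 rows. All 9 were found in it, and all 9 passed the filter on low counts, with 19795 genes in all. The cells came from livers of C57BL/6 mice aged 7 to 8 weeks, of the genotype labelled NICeCA (3 libraries, numbered 1, 2 and 3) or wild type (3 libraries, numbered 1, 3 and 4). Mice of both genotypes were given tamoxifen by intraperitoneal injection, so tamoxifen itself is common to both groups. The labels say that the injection switched on Notch signalling, read here as applying to the NICeCA mice. The labels name neither the promoter that drives the recombinase nor the activated receptor, and do not give how many animals stood behind the libraries. A p-value here thus reflects spread among libraries, some of which can be technical. The design sets cells of mice with activated Notch signalling against those of wild type mice.

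Endothelium normally keeps blood fluid. Thrombomodulin (Thbd) captures thrombin and turns it towards activation of protein C, which the endothelial protein C receptor (Procr) holds on the cell surface, while tissue factor pathway inhibitor (Tfpi) blocks the complex of tissue factor (F3) and factor VIIa that starts coagulation. Von Willebrand factor (Vwf) tethers platelets and carries factor VIII (F8) in plasma, and liver sinusoidal endothelial cells are a main source of factor VIII. Tissue-type (Plat) and urokinase-type (Plau) plasminogen activators make plasmin, which dissolves fibrin, and Plaur is the cell surface receptor that binds urokinase.

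The promoters of the gene that triggers coagulation and of the gene for its inhibitor are shown as examples of the sequence just upstream of these genes. They are RefSeq windows of assembly GRCm38.p6, each ending at the base before the deposited 5′ end of the gene: F3 at chr3:121723287-121723536 (plus strand) and Tfpi at chr2:84476830-84477009 (minus strand). Capitals mark matches on either strand to 3 motifs: TGGGAA, the core bound by the Notch effector RBPJ; TGANTCA, bound by AP-1 factors; and GGGCGG, bound by Sp1.
F3: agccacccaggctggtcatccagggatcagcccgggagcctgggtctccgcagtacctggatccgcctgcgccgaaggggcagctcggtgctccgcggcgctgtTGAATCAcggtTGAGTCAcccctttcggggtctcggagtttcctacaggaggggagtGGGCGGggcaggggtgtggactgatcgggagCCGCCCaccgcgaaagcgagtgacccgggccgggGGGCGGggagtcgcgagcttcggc
Tfpi: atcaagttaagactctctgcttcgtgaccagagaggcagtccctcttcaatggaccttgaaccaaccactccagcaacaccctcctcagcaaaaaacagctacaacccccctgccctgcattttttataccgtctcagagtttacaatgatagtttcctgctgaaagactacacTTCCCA
The F3 window of 250 bases held 2 AP-1 matches, at positions 105 to 111 and 116 to 122 counted from its 5′ end, and 3 Sp1 matches, none of them overlapping. Of 32851 RefSeq promoter windows of the same length, 6.75% held the AP-1 letters and 32.7% the Sp1 letters. The Tfpi window of 180 bases held 1 match, the RBPJ core on the opposite strand at positions 175 to 180, and 16.3% of windows of that length held it. These matches describe letters only. RefSeq windows were given for 5 of the 9 genes, and 3 of these began within 100 bases of the deposited 5′ end. The third, of Procr, held 1 AP-1 match and is not shown.

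Library totals ran from 26254649 to 30034191 counts, so 1 CPM (normalised count relative to the library total, scaled by the trimmed mean of M values, TMM) stands for 26.1 to 30.3 counts. Hey1, a direct Notch target, had 24.5, 33.1 and 39.3 CPM in NICeCA libraries, against 5.19, 6.06 and 6.31 CPM in wild type libraries, and passed the test across all genes (edgeR adjusted p = 0.037). Notch1 had 974, 1098 and 894 CPM in NICeCA libraries, against 851, 723 and 743 CPM in wild type libraries, and did not pass (edgeR adjusted p = 0.294). The sinusoidal markers, among them Stab2 and Clec4g, were abundant in every library, at a summed 28238, 23096 and 16464 CPM in NICeCA libraries, against 31178, 31441 and 31255 CPM in wild type libraries. Markers of B cells summed to 13.3 to 18.4 CPM in NICeCA libraries, against 2.18 to 6.67 CPM in wild type libraries. Those of smooth muscle summed to 52.1 to 61.8 CPM in NICeCA libraries, against 33.4 to 35.7 CPM in wild type libraries. The sums of Kupffer cell, hepatocyte, stellate cell, cholangiocyte and T and NK cell markers overlapped between genotypes. Their median log2 fold changes (NICeCA over wild type) were 0.21, -0.52, -0.75, 0.01 and 1.80 in that order. DESeq2 called 2 T and NK cell markers higher and 1 hepatocyte marker lower. Of the stellate cell markers it called 1 higher and 3 lower. Overlap of a sum thus does not mean that its markers were unchanged. NICeCA 3 stood apart from the other libraries. Its sinusoidal sum was the lowest of the 6. Its neutrophil and monocyte markers summed to 15821 CPM, against 3115 and 4390 CPM in the other NICeCA libraries and 162 to 2789 CPM in wild type libraries. The sum of these markers was thus higher in every NICeCA library than in any wild type library. Values with and without NICeCA 3 are therefore given below for each of the 9 genes whose result depends on it. In bulk RNA, fewer cells of a type and less RNA per cell cannot be told apart.

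Of the 9 genes, Thbd and Tfpi were lower in every NICeCA library than in any wild type library, Plat and Plaur were higher in every NICeCA library, and the other 5 overlapped between genotypes. A separation of this kind, 4 of 9 here, occurred in 23.4% of all tested genes, 2288 of them higher and 2344 lower in NICeCA. The main test, edgeR's quasi-likelihood test with Benjamini-Hochberg adjustment over all tested genes at 0.05, called none of the 9, and it called only 0.0455% of all genes (9 genes). At an unadjusted edgeR p under 0.05 the same 4 of 9 passed, against 16.5% of all genes. DESeq2 called 3 of the 9, Thbd lower and Plat and Plaur higher, against 5.6% of all genes (1107 genes, 733 higher and 374 lower). The median log2 fold change of the 9 genes was -0.08, and that of all tested genes was -0.01.

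**Figure D1:**
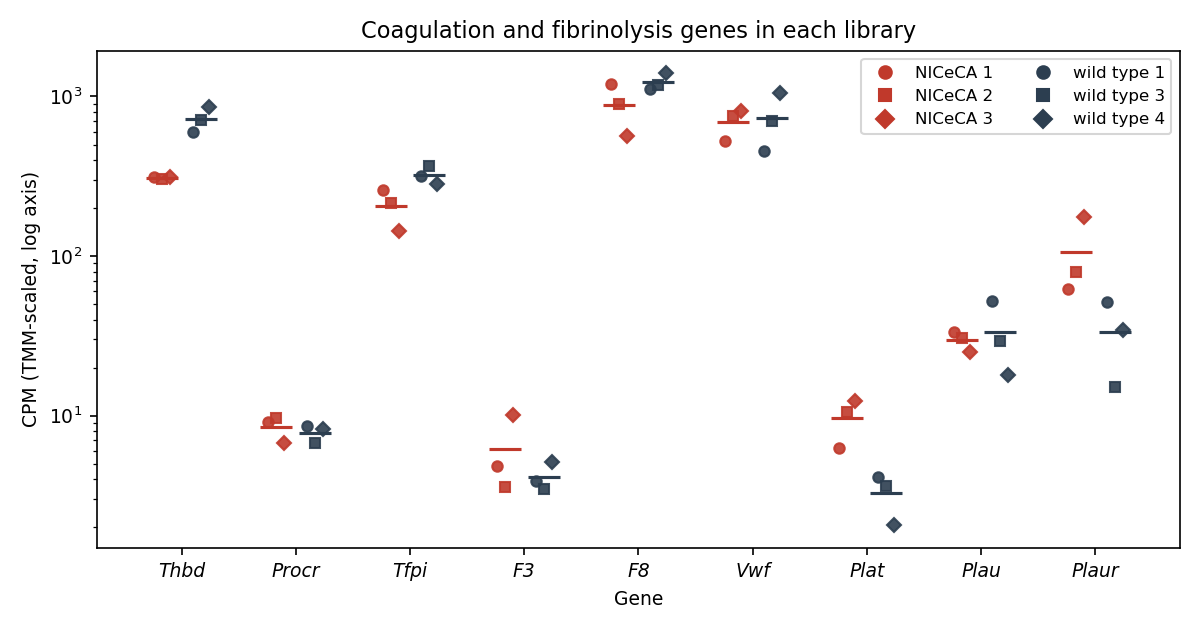
Normalised read counts (CPM, log axis) of the 9 genes in each library, NICeCA in red to the left of wild type in dark blue, with the library number given by the symbol and the group mean by a bar. The Thbd points of the 3 NICeCA libraries lie on top of each other at 305 to 312 CPM, below all 3 wild type points at 603 to 862 CPM, and Plaur reaches its highest value, 175 CPM, in NICeCA 3.

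Thbd, a gene on chromosome 2 (148404471 to 148408188, minus strand, in the deposited coordinates, which for this gene equal RefSeq GRCm38.p6), was the member nearest to the threshold. It had 312, 305 and 311 CPM in NICeCA libraries 1, 2 and 3, against 603, 714 and 862 CPM in wild type libraries 1, 3 and 4. The NICeCA libraries were nearly equal, the wild type libraries varied, and the groups did not overlap. The means were 310 ± 3.77 CPM in NICeCA and 726 ± 130 CPM in wild type (SD, n = 3 each), a log2 fold change of -1.23 ± 0.16 (SE), or 2.34-fold lower. It ranked 25th of all tested genes by p, and the edgeR adjusted p was 0.0748, while DESeq2 called it lower (adjusted p = 3.38e-10). These values rest on 9042 to 9462 counts in NICeCA libraries and 17087 to 23891 counts in wild type libraries. Sinusoidal markers moved in the same direction, 11 of 11 negative with a median log2 fold change of -0.53, and so did 12 of 14 pan-endothelial markers, with a median of -0.25; their part in the Thbd difference was not tested. Among NICeCA libraries Thbd ran from 305 to 312 CPM and the sinusoidal sum from 16464 to 28238 CPM, and their relation was not tested. With libraries scaled to their pan-endothelial counts, the log2 fold change of Thbd was -0.99 (edgeR adjusted p = 0.172). Without NICeCA 3 it was -1.23.

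Procr, which encodes the receptor that presents protein C to the thrombin-thrombomodulin complex, lies on chromosome 2 (155751125 to 155755478, plus strand). It had 9.08, 9.59 and 6.71 CPM in NICeCA libraries, against 8.58, 6.75 and 8.19 CPM in wild type libraries. The groups overlapped, with means of 8.46 ± 1.54 CPM in NICeCA and 7.84 ± 0.97 CPM in wild type (SD, n = 3 each). Procr had a log2 fold change of 0.11 ± 0.20 (SE, edgeR adjusted p = 0.827). The receptor was at a far lower level per length than thrombomodulin in both genotypes: 4.64 ± 0.84 CPM per kb for Procr beside 83.3 ± 1.01 CPM per kb for Thbd in NICeCA, and 4.30 ± 0.53 beside 195 ± 34.9 CPM per kb in wild type.

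Tfpi lies on chromosome 2 (84432855 to 84476829, minus strand). It had 258, 215 and 144 CPM in NICeCA libraries, against 316, 367 and 282 CPM in wild type libraries. Every NICeCA value was below every wild type value, with NICeCA 3 the lowest. The means were 206 ± 57.7 CPM in NICeCA and 322 ± 43.2 CPM in wild type (SD, n = 3 each). The log2 fold change was -0.64 ± 0.22 (SE), or 1.56-fold lower, and neither tool called it (adjusted p = 0.237 with edgeR and 0.102 with DESeq2). Without NICeCA 3 it was -0.44, and without NICeCA 1 it was -0.84, a set of libraries in which DESeq2 called it lower (adjusted p = 0.0165). Among NICeCA libraries Tfpi had the same order as the summed sinusoidal markers, highest in NICeCA 1 and lowest in NICeCA 3. In wild type libraries 1, 3 and 4 that sum was 31178, 31441 and 31255 CPM, an order that Tfpi did not have. The part of these markers in the result was not tested.

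F3 encodes tissue factor, the initiator of coagulation that resting endothelium largely lacks. Its locus is on chromosome 3 (121723537 to 121735052, plus strand). It was among the 3 lowest of the 9 genes per length in both genotypes. It had 4.85, 3.58 and 10.0 CPM in NICeCA libraries, against 3.88, 3.45 and 5.12 CPM in wild type libraries. NICeCA 3 was high, and the other 2 NICeCA libraries lay within the wild type range. F3 had a log2 fold change of 0.57 ± 0.40 (SE, edgeR adjusted p = 0.524), or of 0.02 without NICeCA 3. The deposited annotation places the antisense gene LOC105244543 (9 to 21 counts a library) across the start of F3, whose own counts were 90 to 302 a library. Whether reads were assigned by strand is not given in the sources used here.

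F8, the factor VIII gene, is on the X chromosome (75172715 to 75383525, minus strand). It had 1200, 902 and 562 CPM in NICeCA libraries, against 1111, 1182 and 1397 CPM in wild type libraries. NICeCA 1 lay within the wild type range and the other 2 NICeCA libraries lay below it. The means were 888 ± 319 CPM in NICeCA and 1230 ± 149 CPM in wild type (SD, n = 3 each). The log2 fold change was -0.47 ± 0.28 (SE, edgeR adjusted p = 0.443), -0.23 without NICeCA 3 and -0.75 without NICeCA 1. As for Tfpi, the order of the NICeCA libraries was that of their sinusoidal sum, and the order of the wild type libraries was not. The part of these markers in the result was not tested. Fundc2 (1253 to 1771 counts a library) and the pseudogene Gm6039 (167 to 226 counts) overlap F8 on the opposite strand, beside 16936 to 38719 counts for F8 itself.

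Vwf, on chromosome 6 (125552935 to 125686679, plus strand), had 525, 754 and 806 CPM in NICeCA libraries, against 457, 700 and 1049 CPM in wild type libraries. The wild type libraries held both the lowest and the highest value. The means were 695 ± 149 CPM in NICeCA and 735 ± 297 CPM in wild type (SD, n = 3 each), and the log2 fold change was -0.08 ± 0.31 (SE, edgeR adjusted p = 0.932). Its sign turned with the libraries and the scaling used, so no direction is given. Platelets and megakaryocytes also make von Willebrand factor. Their markers summed to 15.9, 14.6 and 16.3 CPM in NICeCA libraries, against 14.5, 7.70 and 16.7 CPM in wild type libraries, most of it from Itga2b. Of that list of 10, 3 were tested, and Pf4, Ppbp and Gp1bb were listed at 0 in every library. The deposited annotation places Ppbp and Gp1bb on sequences outside the chromosomes. Whether reads could be counted for these genes is not given, so their zeros are not read as absence of platelet RNA.

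Plat encodes tissue-type plasminogen activator and lies on chromosome 8 (22757744 to 22782848, plus strand). It had 6.27, 10.47 and 12.3 CPM in NICeCA libraries, against 4.13, 3.64 and 2.06 CPM in wild type libraries. The groups did not overlap, although the lowest NICeCA and the highest wild type value were close. The means were 9.69 ± 3.10 CPM in NICeCA and 3.28 ± 1.08 CPM in wild type (SD, n = 3 each), a log2 fold change of 1.56 ± 0.35 (SE), or 2.95-fold higher. The edgeR adjusted p was 0.161, and DESeq2 called it higher (adjusted p = 0.00191). The level was low, with 190 to 371 counts in NICeCA libraries and 57 to 117 counts in wild type libraries. Without NICeCA 3 the log2 fold change was 1.35 and DESeq2 no longer called it (adjusted p = 0.0718). Smooth muscle markers (6 genes, 5 tested, 4 of them positive, none at 0) summed to 52.1, 61.7 and 61.8 CPM in NICeCA libraries, against 33.4, 34.5 and 35.7 CPM in wild type libraries. Their order was that of Plat among NICeCA libraries and the opposite among wild type libraries. The part of these markers in the result was not tested.

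Plau, on chromosome 14 (20836662 to 20843388, plus strand), had 33.6, 30.6 and 24.98 CPM in NICeCA libraries, against 52.5, 29.6 and 18.0 CPM in wild type libraries. All 3 NICeCA values lay inside the wild type range. The log2 fold change was -0.17 ± 0.36 (SE, edgeR adjusted p = 0.859), and its sign depended on wild type 1: without that library it was 0.32.

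Plaur, on chromosome 7 (24458741 to 24475873, plus strand), had 62.4, 79.8 and 175 CPM in NICeCA libraries, against 51.2, 15.2 and 34.4 CPM in wild type libraries. The groups did not overlap, although the lowest NICeCA value (62.4 CPM) and the highest wild type value (51.2 CPM) were close. NICeCA 3 had more than any other library. The means were 106 ± 60.8 CPM in NICeCA and 33.6 ± 18.0 CPM in wild type (SD, n = 3 each), a log2 fold change of 1.65 ± 0.53 (SE), or 3.15-fold higher. The edgeR adjusted p was 0.219, and DESeq2 called it higher (adjusted p = 0.0155). DESeq2 lost this call without NICeCA 3 (log2 fold change 1.08, adjusted p = 0.282), without NICeCA 2 (adjusted p = 0.0542), without wild type 3 (adjusted p = 0.109) and without wild type 4 (adjusted p = 0.305). The edgeR log2 fold change ran from 1.08 without NICeCA 3 to 2.09 without wild type 1. Neutrophils and monocytes also express Plaur. Their 13 markers, none at 0 throughout, summed to 3115, 4390 and 15821 CPM in NICeCA libraries, against 1020, 162 and 2789 CPM in wild type libraries. Log2 fold changes were above 0 for all 13, their median being 2.41, and DESeq2 called 2 of them, Elane and Camp. The order of the NICeCA libraries was the same for Plaur and for this sum, and in wild type 3 both were at their lowest. Wild type 1 and 4 had the opposite order, with 51.2 and 34.4 CPM of Plaur beside marker sums of 1020 and 2789 CPM. The part of these cells in the result was not tested.

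**Figure D2:**
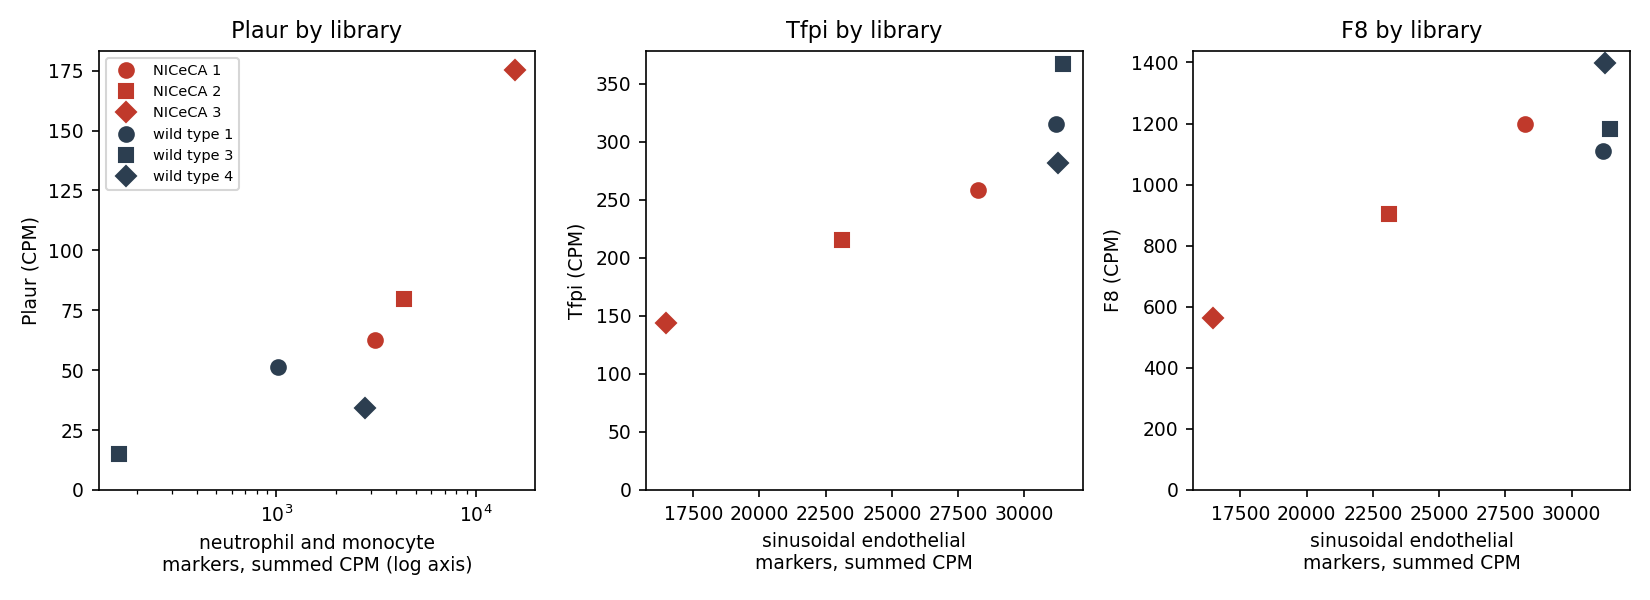
Each point is a library, NICeCA in red and wild type in dark blue. Plaur (CPM) is set against the summed CPM of neutrophil and monocyte markers on a log axis, and Tfpi and F8 (CPM) against the summed CPM of sinusoidal endothelial markers. NICeCA 3, the red diamond, is at 175 CPM of Plaur with the highest marker sum, and at 144 CPM of Tfpi and 562 CPM of F8 with the lowest.

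**Figure D3:**
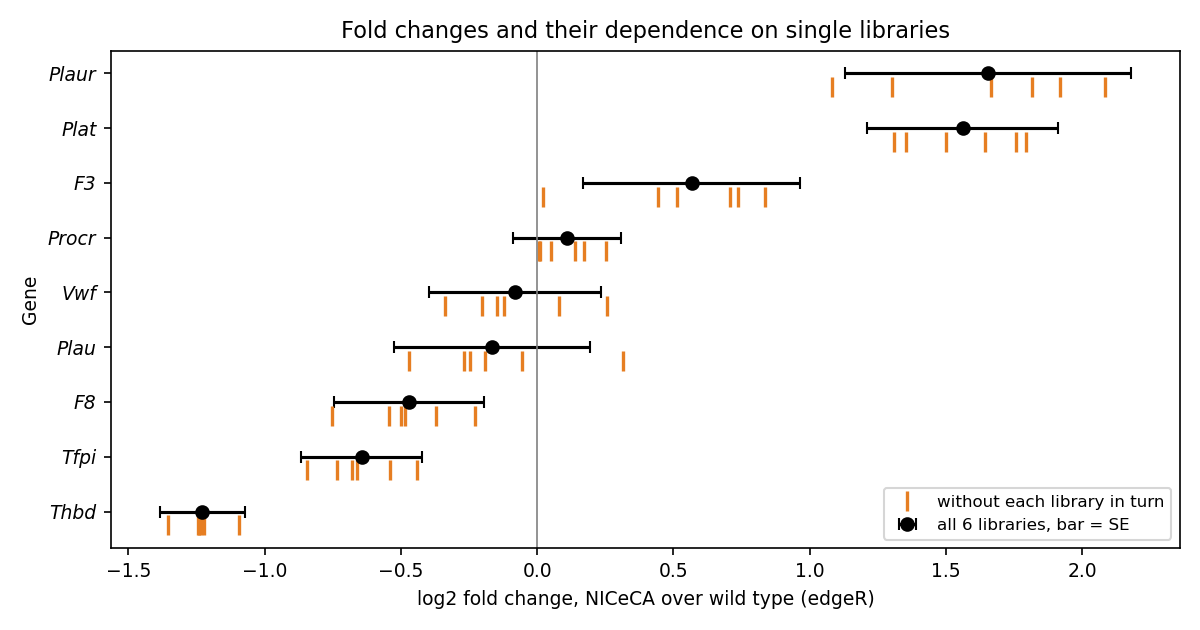
Log2 fold changes (NICeCA over wild type, edgeR) of the 9 genes with all 6 libraries, as black points with SE bars, and without each library in turn, as orange ticks. The ticks of Thbd stay between -1.35 and -1.09, those of Plaur spread from 1.08 to 2.09, and those of Vwf and Plau lie on both sides of 0.

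Per length of transcript, the 9 genes spanned a wide range in both genotypes. In NICeCA the mean levels were 83.3 CPM per kb for Thbd, 82.5 for F8, 77.1 for Vwf, 63.9 for Plaur and 43.2 for Tfpi, and each of these overlapped with the next over the 3 libraries. Plau at 12.7 CPM per kb stood below them without overlap, and Procr at 4.64, Plat at 3.83 and F3 at 3.28 CPM per kb stood below Plau and overlapped with each other. In wild type Thbd was the highest, at 195 CPM per kb, and did not overlap with F8 at 114 CPM per kb. F8, Vwf at 81.6 and Tfpi at 67.5 CPM per kb overlapped with their neighbours. Plaur at 20.3 CPM per kb came after them without overlap and overlapped with Plau at 14.2, followed by Procr at 4.30, F3 at 2.21 and Plat at 1.29 CPM per kb, each apart from the one before. Thbd therefore led without overlap in wild type only, and in NICeCA it overlapped with F8. Plat was last in wild type and next to last in NICeCA.

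Ratios between pairs of these genes within a library do not depend on how libraries are scaled. Of 9 pairs compared by a two-sided exact permutation test over the 3 libraries a group, whose smallest possible p is 0.1, 4 pairs did not overlap, and none could pass 0.05. Each of these 4 pairs holds Thbd or Plat, genes that were themselves apart between genotypes, so the pairs are not further results. The share of such separation among gene pairs in general was not computed. The ratio of Thbd to Vwf (counts per kb) was 1.44, 0.981 and 0.937 in NICeCA libraries, against 3.20, 2.47 and 1.99 in wild type libraries, a log2 difference of -1.19 (exact p = 0.1, adjusted over the 9 pairs 0.225). Relative to Vwf, Thbd was lower in every NICeCA library than in any wild type library. The ratio of Thbd to Procr was 16.9, 15.6 and 22.8 in NICeCA libraries, against 34.5, 51.9 and 51.6 in wild type libraries. The ratio of Thbd to F3, an anticoagulant to a procoagulant surface gene, was 32.5, 43.0 and 15.7 in NICeCA libraries, against 78.4, 104 and 84.9 in wild type libraries. The log2 differences of these pairs were -1.32 and -1.66, and the second was -1.24 without NICeCA 3. The ratio of Plat to Plau went the other way, at 0.173, 0.317 and 0.457 in NICeCA libraries, against 0.0728, 0.114 and 0.106 in wild type libraries, a log2 difference of 1.61. Plau exceeded Plat per length in every library. These 3 pairs, too, had an exact p of 0.1 and an adjusted p of 0.225. The ratio of F8 to its carrier Vwf was 1.91, 1.001 and 0.584 in NICeCA libraries, against 2.03, 1.41 and 1.11 in wild type libraries, and the groups overlapped (exact p = 0.4). The ratios of Tfpi to F3, Plaur to Plau and F8 to Thbd overlapped as well (exact p = 0.2 each).

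**Figure D4:**
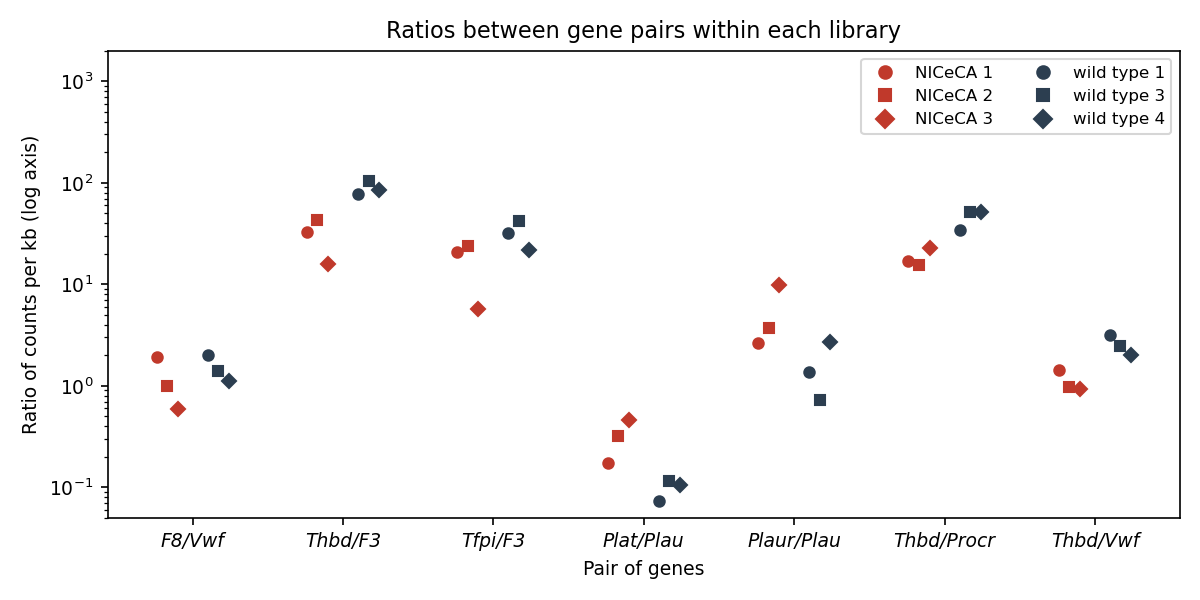
Ratios of counts per kb (log axis) between 7 of the 9 pairs in each library, NICeCA in red to the left of wild type in dark blue, with the library number given by the symbol. The ratios of Thbd to F3, Procr and Vwf are below every wild type value in all 3 NICeCA libraries, and the ratio of Plat to Plau is above.

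The wider haemostasis system was read from 7 lists of 68 genes, of which 63 were tested. The edgeR test called none of the 63, and 9 had an unadjusted edgeR p under 0.05, against 16.5% of all tested genes. DESeq2 called 6, against 5.6% of all genes: F5 and Serpine2 higher, and Gas6, Stx2, Mcfd2 and Ptgs1 lower. The log2 fold change was above 0 for 22 of the 63 and below 0 for 41 (median -0.13), beside 9571 genes above and 10224 below 0 among all tested genes (median -0.01). Without NICeCA 3 the edgeR log2 fold changes were 1.41 for F5, 1.39 for Serpine2 and -0.57 for Gas6. They were -0.37 for Stx2, -0.38 for Mcfd2 and -1.08 for Ptgs1. Whether DESeq2 calls these 6 genes without that library is not reported here.

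Among the clotting factors and fibrinogen genes that hepatocytes make, 4 of 13 tested were positive, and the median log2 fold change was -0.25. F5, the gene of factor V, the cofactor of factor Xa, had 8.48, 11.3 and 28.1 CPM in NICeCA libraries, against 2.79, 2.95 and 5.45 CPM in wild type libraries. The groups did not overlap, NICeCA 3 being the highest, and the log2 fold change was 2.10 ± 0.51 (SE; adjusted p = 0.177 with edgeR and 0.00104 with DESeq2), or 1.41 without NICeCA 3. The neutrophil and monocyte sum given for Plaur had the same order over the NICeCA libraries but not over the wild type libraries, and its part was not tested. The fibrinogen genes Fga, Fgb and Fgg had log2 fold changes of -0.77, -0.78 and -0.75 and overlapped between genotypes. Hepatocyte markers were below 0 for 7 of 9 tested, with a median log2 fold change of -0.52, and their part was not tested. In the list of anticoagulant inhibitors and cofactors, log2 fold changes were below 0 for all 8 tested genes, their median being -0.20. Gas6 was listed as a vitamin K-dependent ligand related to protein S and is not itself an anticoagulant. It had 402, 340 and 339 CPM in NICeCA libraries, against 570, 540 and 541 CPM in wild type libraries. The groups did not overlap, and the log2 fold change was -0.61 ± 0.12 (SE; adjusted p = 0.139 with edgeR and 0.000243 with DESeq2). With libraries scaled to their pan-endothelial counts it was -0.38 (edgeR adjusted p = 0.339), and the endothelial markers given beside Thbd moved in the same direction; their part was not tested. Protein S itself (Pros1) had -0.42 and overlapped.

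In the plasminogen system, 5 of 11 genes were positive. Serpine2, the gene of protease nexin-1, which inhibits thrombin and the plasminogen activators, had 1.52, 2.13 and 1.66 CPM in NICeCA libraries, against 0.847, 0.766 and 0.469 CPM in wild type libraries. The groups did not overlap at this low level, and the log2 fold change was 1.34 ± 0.34 (SE; adjusted p = 0.186 with edgeR and 0.046 with DESeq2). Of 12 tested partners of von Willebrand factor and factor VIII, 5 were positive. Mcfd2, part of the receptor that carries factor VIII out of the endoplasmic reticulum, averaged 193 ± 21.6 CPM in NICeCA and 262 ± 12.9 CPM in wild type (SD, n = 3 each; log2 fold change -0.44, adjusted p = 0.194 with edgeR and 0.0416 with DESeq2). Its partner Lman1 had a log2 fold change of -0.24 and overlapped. Stx2, a syntaxin whose locus is tied to plasma von Willebrand factor in humans, averaged 153 ± 17.7 CPM in NICeCA and 211 ± 17.2 CPM in wild type (SD, n = 3 each; log2 fold change -0.46, adjusted p = 0.194 with edgeR and 0.042 with DESeq2). With libraries scaled to their pan-endothelial counts, the log2 fold changes were -0.21 for Mcfd2 and -0.24 for Stx2 (edgeR adjusted p = 0.623 and 0.499), and the part of the lower endothelial markers in both was not tested. Vamp8, Asgr1 and Asgr2 were listed at 0 in every library, and whether reads could be counted for them is not given.

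Of the 4 thrombin and protease-activated receptors, none was called by either tool. The smallest p was that of F2rl2, at 0.776 ± 0.329 CPM in NICeCA and 0.400 ± 0.160 CPM in wild type (SD, n = 3 each), which overlapped. F2r, the main thrombin receptor, had 607, 749 and 542 CPM in NICeCA libraries, against 610, 718 and 640 CPM in wild type libraries, with a log2 fold change of -0.05. Of the 5 genes by which endothelium restrains platelets, Ptgs1, the constitutive cyclooxygenase upstream of prostacyclin, had 151, 111 and 90.7 CPM in NICeCA libraries, against 210, 319 and 303 CPM in wild type libraries. The groups did not overlap. The log2 fold change was -1.24 ± 0.24 (SE; adjusted p = 0.137 with edgeR and 0.000128 with DESeq2). With libraries scaled to their pan-endothelial counts it was -1.04 (edgeR adjusted p = 0.161). Within each genotype the libraries had the same order for Ptgs1 and for the summed sinusoidal markers. Those sums were nearly equal in wild type, at 31178, 31441 and 31255 CPM. The part of these markers in the Ptgs1 result was not tested. Nos3, the endothelial nitric oxide synthase, had -0.41 without overlap, and prostacyclin synthase (Ptgis) had 0.80 with overlap, neither called. Of 10 transcription factors known to act on promoters of the 9 genes, neither tool called any. Klf2 and Klf4, which activate Thbd in endothelium, had log2 fold changes of -0.12 and -0.17 and overlapped. Nfe2l2 had the smallest p of the list, at 201 ± 9.98 CPM in NICeCA and 254 ± 21.9 CPM in wild type (SD, n = 3 each; log2 fold change -0.34, edgeR adjusted p = 0.222).

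**Figure D5:**
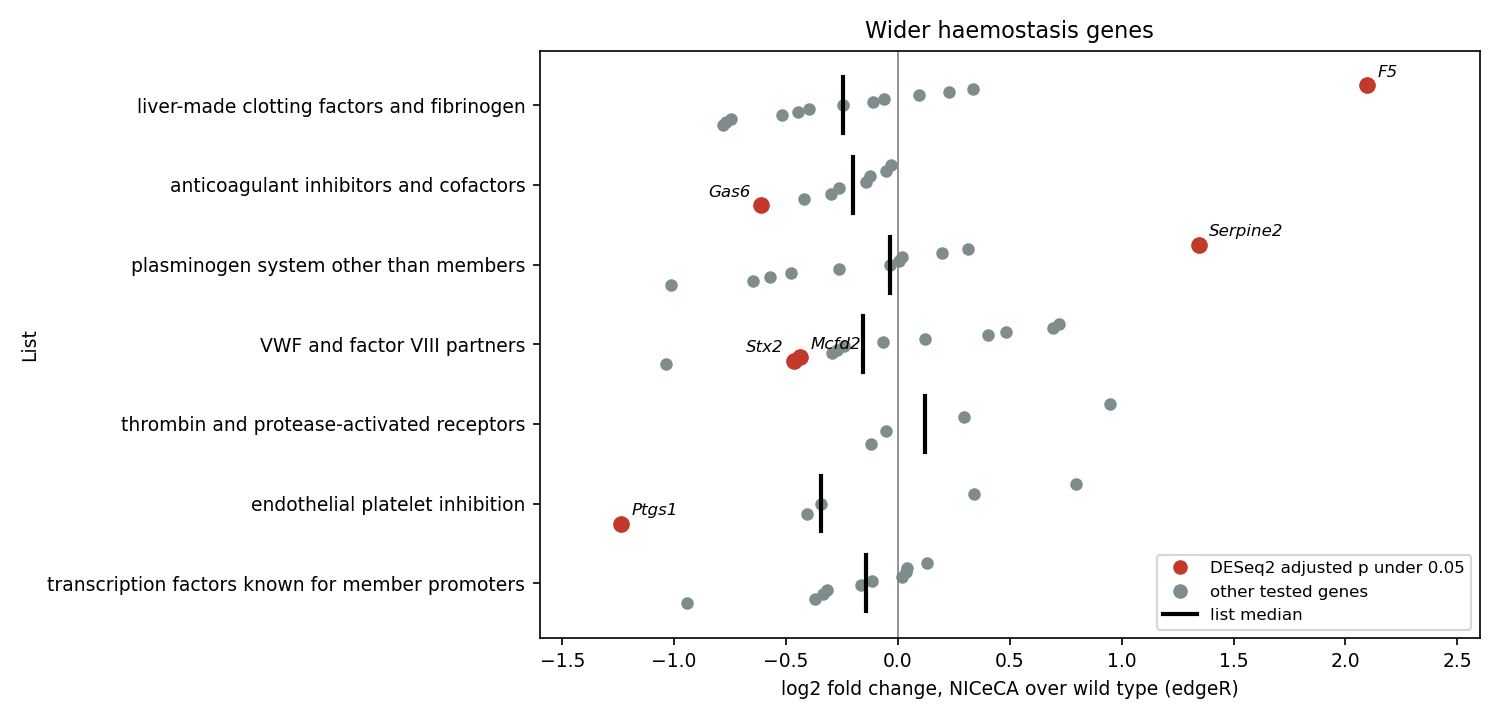
Log2 fold changes (NICeCA over wild type, edgeR) of the tested genes of the 7 wider lists, a row a list, with the list median as a black bar. The 6 genes called by DESeq2 are red and named; F5 at 2.10 is the farthest to the right and Ptgs1 at -1.24 the farthest to the left.

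The genes whose levels ran most like each member over the 6 libraries were taken from 9906 genes with a mean of at least 10 CPM, by Pearson's r of log2 CPM. With 6 libraries and this many genes, values of r near 1 arise readily, and the points share their library and its cell makeup. Thbd was most like Khk (r = 0.994), Dpm1 and Amigo2, and Tfpi most like Nfic (r = 0.998), Wasl and Nucb1. Plaur was most like Zswim4 (r = 0.998), Cass4 and Sema4d. Cass4 and Sema4d had log2 fold changes of 1.41 and 1.76, close to the 1.65 of Plaur, and Zswim4 had a smaller one of 0.61. For F8 these genes were Ctnnd1, Adcy9 and Rab11fip3, for Vwf Tbcc, Timm10b and Mfge8, and for Procr Tanc2, Nfatc3 and Sptlc1. For Plat they were Cwc25, Ccdc167 and Nin, for Plau Gm30972, Cr1l and Apold1, and for F3 Klhdc8b, Gm9835 and Glrx2. Members were left out of that search.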

How the data were processed

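The authors deposited 1 table with raw counts and RPKM of each gene, for 6 libraries sequenced as paired reads of 150 bases, per the labels. Which aligner, counter, build and strand setting were used is not given in the sources used here. The deposited RPKM values equal count per length and library total (relative gap up to 5.0e-06 where counts reach 50) and were not tested. Of the 9 genes, 4 have the coordinates of RefSeq GRCm38.p6.

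The counts were tested with edgeR 4.0.16 in R 4.3.3 (filterByExpr with minimum count 10, TMM, glmQLFit and glmQLFTest), with adjustment over 19795 genes; 17861 rows were at 0 in every library. The SE is the log2 fold change over the square root of F. CPM values use TMM-scaled totals; correlations use log2 CPM with a prior count of 2. DESeq2 1.42.0 and limma 3.58.1 were alternatives, with other filters, scalings, the replicate number as a block, and each library left out. The fits were also run on simulated data, and the outcome of that run is not reported here. DESeq2 without each library was added after its calls were seen. The common biological coefficient of variation was 0.283, with 3.07 prior degrees of freedom. The members, gene lists and motifs were chosen with earlier results of these data known. Beside the 9 members, the rule named from each wider list the genes past 0.05 by edgeR or DESeq2, or else the one with the smallest p; the fibrinogen genes, Pros1, Lman1, F2r, Nos3, Ptgis, Klf2 and Klf4 were added after their values were seen. The ratio of 1 of the 9 pairs is not reported here.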

Additional observations from a re-analysis of the deposited data

How the results depend on the processing

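By DESeq2, 3 of the 9 genes, 6 wider haemostasis genes and 1107 of all genes were called, where edgeR called 0, 0 and 9. With no filter on low counts edgeR called 1 member, Thbd (adjusted p = 0.0244), and 111 genes in all. Scaling to pan-endothelial counts left 4 genes called and limma-voom 5. Scaling to pan-endothelial counts moved the median log2 fold change of all genes to 0.23, from -0.01, and gave 0.19 for Vwf and 0.057 for Plau. It also gave -0.30 for F8, 0.32 for Procr, 0.91 for F3 and -0.10 for Nfe2l2, none of them called. Without each library in turn, edgeR called 0 to 14 genes in all (14 without NICeCA 1, 1 without NICeCA 2 and 0 without each of the others, with 2078 to 3695 genes at an unadjusted p under 0.05) and no member. DESeq2 called 1 to 4 members: Thbd in all 6 of these fits, Plat in all but the one without NICeCA 3, Plaur only without wild type 1 or without NICeCA 1, and Tfpi without NICeCA 1. Over these fits the log2 fold change of Vwf ran from -0.34 to 0.26 with edgeR and from -0.33 to 0.27 with DESeq2, and that of Plau from -0.47 to 0.32 and from -0.47 to 0.33. The causes of these changes were not tested. The other 7 members kept their sign in every alternative.

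Libraries of the same number did not deviate together (r = -0.26 for number 1 and -0.31 for number 3, over 16541 genes), and the main test did not pair them. The deviation of a library also holds its cell makeup, so these values cannot tell whether libraries of a number share a batch. With the replicate block over the 4 libraries numbered 1 and 3, no gene was called, 1659 had an unadjusted p under 0.05, 2 of them members, and Vwf had 0.20. A fit with the number as a term over all 6 libraries was not run. With 3 libraries a group, members at a few CPM (Plat, F3, Procr) rest on 57 to 371 counts a library. The ratios between genes kept their sign without each library.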
